A study of Mus musculus with 2 samples.

Results

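The genes described here are 8 that set how lung endothelium handles clotting: Vwf, F8, Thbd, Procr, Tfpi, Plat, Serpine2 and F2r. They were taken by symbol from the 32286 features of the count matrices, and each symbol matched a single feature. Their levels were read in mouse lung cells carrying the red fluorescent protein tdTomato, switched on by VE-cadherin-cre and collected by fluorescence sorting before droplet sequencing of transcript 3' ends. There were 2 libraries, both from C57BL/6J mice 10 to 12 weeks old: aKO, and its counterpart aWT. The series title names a mouse model of Hereditary Hemorrhagic Telangiectasia 2, a vessel disorder tied to ACVRL1 (the receptor ALK1), but the labels do not spell out the allele behind aKO, the number of animals or their sex. The cre follows the promoter of an endothelial cadherin, so both libraries hold the sorted endothelial lineage and not whole lung.

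Endothelium keeps blood fluid and yet stores what is needed to start a clot. Von Willebrand factor (Vwf) tethers platelets and carries factor VIII (F8), while thrombomodulin (Thbd) and the endothelial protein C receptor (Procr) turn thrombin towards activating protein C, and tissue factor pathway inhibitor (Tfpi) blocks the step that starts coagulation. Tissue plasminogen activator (Plat) begins the dissolving of fibrin, protease nexin-1 (Serpine2) inhibits thrombin and plasminogen activators, and F2r encodes PAR1, the receptor through which thrombin signals to the cell.

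Each group was a single library, so no difference between aKO and aWT was tested, there was no replicate error and no p-value is given. A level is given in counts per 1000000 (CPM), the gene's unique molecular identifiers (UMIs) scaled to the UMI total of the same cells. Log2 ratios are aKO over aWT after 5 CPM were added to each. Folds carry exact 95% intervals that cover counting error only, and the word higher or lower below refers to size in these libraries. A gene was counted as measured from 5 CPM in at least 1 library, and as higher or lower from a ratio of 1.5-fold.

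The aKO matrix listed 11045 barcodes with 75950364 UMIs, and the aWT matrix 15996 barcodes with 72270260 UMIs. After filtering, 10380 aKO cells (median 5738.5 UMIs) and 14959 aWT cells (median 3922 UMIs) were kept, of which 10236 and 14549 were endothelial by their markers. Classes were ranges of marker UMIs, not proven types: a cell went to the list of 6 markers of which it held the most, with at least 2. General capillary cells numbered 4304 in aKO and 8383 in aWT, aerocytes (the large capillary cells of the air sacs) 1061 and 2286, arterial cells 949 and 1061, venous cells 833 and 1006, and lymphatic cells 1723 and 501. Lymphatic cells thus made up 16.8% of aKO and 3.44% of aWT endothelial cells, shares that the sort can set. The winning list led by a single marker in 4.93% to 39.4% of the aKO cells of a class and in 7.39% to 44.3% of the aWT cells, most often in arterial and venous cells. Acvrl1 stood at 486 CPM in aKO and 1024 CPM in aWT endothelial cells, and tdTomato at 88.9 and 117 CPM; no target gene or exon is given for aKO, so Acvrl1 does not check the labels. Xist, the RNA of the inactive X chromosome, stood at 730 CPM in aKO and 3.50 CPM in aWT, so sex and library cannot be told apart. The libraries listed 48 barcodes in common, 40 of them among kept cells. RNA of alveolar type 2 (AT2) epithelium, summed over 4 marker genes, reached 8.64 CPM in aKO and 171 CPM in aWT endothelial cells. Platelet, fibroblast and immune lists stayed at or under 3.40 CPM in aKO and 4.49 CPM in aWT endothelial cells. The airway list reached 13.5 CPM in aKO and 60.9 CPM in aWT, the pericyte and smooth muscle list 17.9 and 14.5 CPM, and the alveolar type 1 list 398 and 266 CPM, nearly all of it Hopx. The part of these lists in the ratios below was not tested.

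RefSeq promoter windows (GRCm38.p6, the mm10 assembly) were found for 5 of the 8 genes: F8, Procr, Tfpi, Serpine2 and F2r. The 3 sequences below are shown because Procr had the highest ratio over all endothelial cells, Serpine2 the highest arterial ratio and F2r the lowest ratio in any class. They are read 5′ to 3′ on the gene's strand, end before the RefSeq start and outside annotated exons, and carry matched motifs in capitals. Searched on both strands were the AP-1 site TGANTCA, the GC-rich BMP element GGCGCC, the nuclear receptor half-site AGGTCA (written TGACCT on the other strand) and the SMAD palindrome GTCTAGAC.
Procr, chr2:155750967-155751116, plus strand: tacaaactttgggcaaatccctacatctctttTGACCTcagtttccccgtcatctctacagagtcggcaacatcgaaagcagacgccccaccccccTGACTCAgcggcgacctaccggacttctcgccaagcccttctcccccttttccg
Serpine2, chr1:79858697-79858915, minus strand: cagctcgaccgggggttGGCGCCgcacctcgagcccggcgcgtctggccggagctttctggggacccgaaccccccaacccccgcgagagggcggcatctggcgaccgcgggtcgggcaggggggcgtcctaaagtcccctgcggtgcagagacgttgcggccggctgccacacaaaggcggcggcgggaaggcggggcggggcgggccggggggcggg
F2r, chr13:95618488-95618716, minus strand: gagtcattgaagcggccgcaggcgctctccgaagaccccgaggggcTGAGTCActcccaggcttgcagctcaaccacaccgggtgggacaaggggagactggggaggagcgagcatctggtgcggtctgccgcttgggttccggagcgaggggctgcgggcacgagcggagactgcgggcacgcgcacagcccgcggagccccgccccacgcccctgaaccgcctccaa
Procr held an AP-1 match and a half-site, Serpine2 a GC-rich element, and F2r an AP-1 match. Among all 32851 windows of 300 bases, 7.81% held the AP-1 letters, 11.9% GGCGCC, 16.3% AGGTCA and 0.213% the palindrome. The F8 window held none of these letters, and of the 2 Tfpi windows 1 held a half-site. The Serpine2 stretch, the F8 window and the Tfpi window with the half-site lie inside the gene spans given below, not upstream of them. A match describes the letters and not a bound site.

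Across all endothelial cells F8, Procr, Plat and Serpine2 were higher in aKO and Vwf was lower, so of the 8 genes 4 passed 1.5-fold upwards and 1 downwards. Over the 11149 genes measured, 11.9% were higher and 6.18% lower by the same rule. The median log2 ratio was 0.42 over the 8 genes and 0.09 over all measured genes. The 8 genes were chosen with earlier results of these data known. With the classes weighted equally, Procr (1.21) and Vwf (-1.01) stayed past 1.5-fold. Plat (0.20) and Serpine2 (0.31) then fell within it, and F8 changed sign (-0.44). Within classes the counts were 3 higher and 1 lower of 7 measured in general capillary cells (8.72% and 5.82% of all genes), 1 and 1 of 6 in aerocytes (6.27% and 4.28%), 2 and 1 of 8 in arterial cells (10.3% and 8.68%), 3 and 2 of 8 in venous cells (13.6% and 8.54%), and 1 and 2 of 8 in lymphatic cells (5.63% and 5.45%). Vwf was counted as lower in 4 of the 5 classes. These counts include Procr and F2r in general capillary cells and Vwf in lymphatic cells, whose ratios are not read as differences below.

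**Figure D1:**
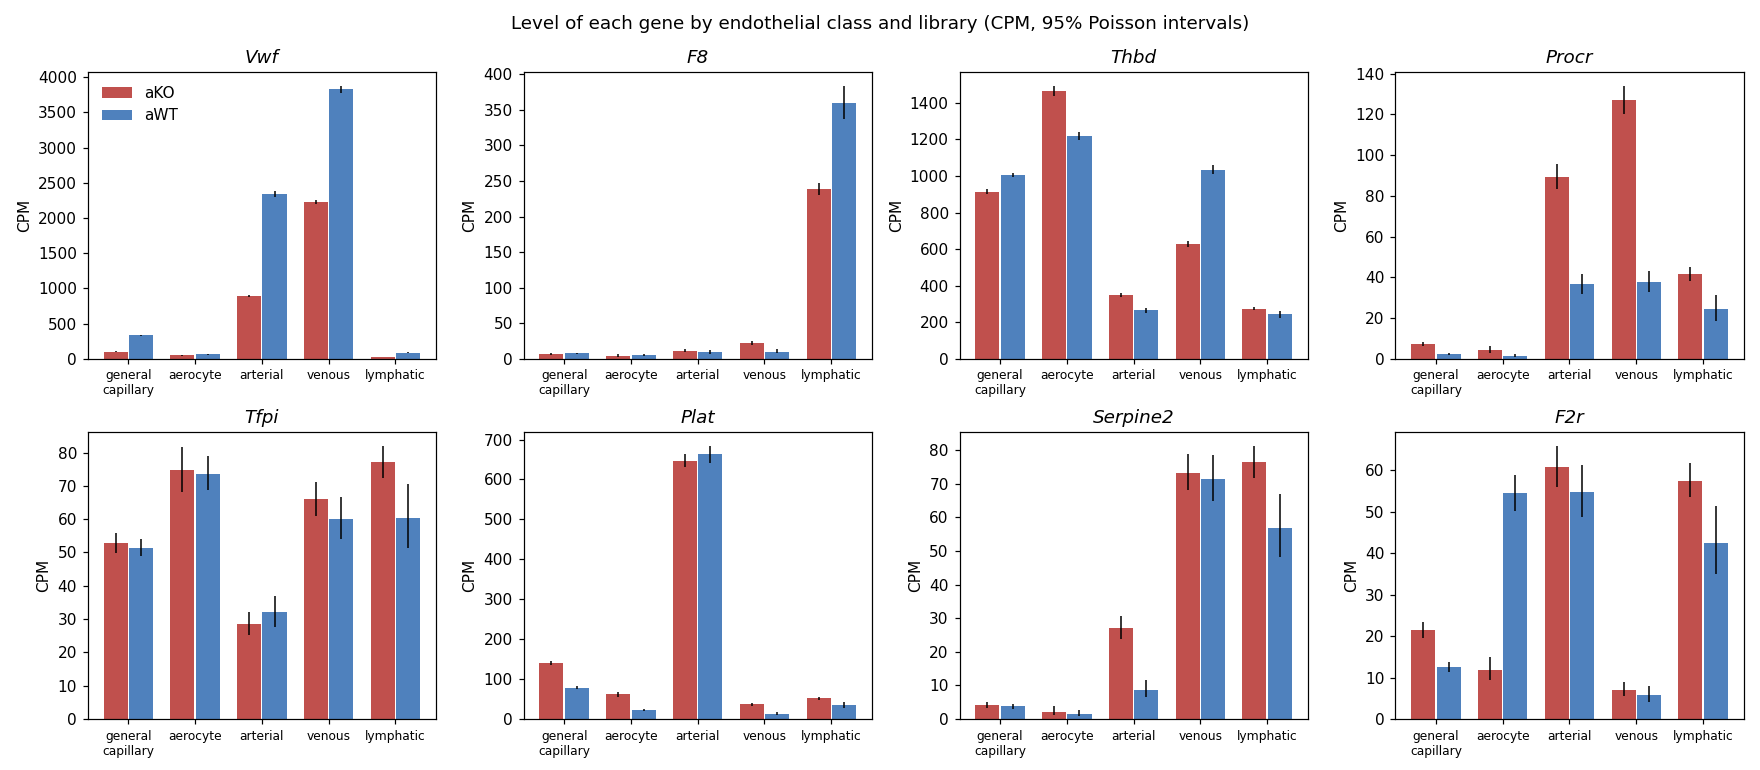
Level of each of the 8 genes in CPM (y axes start at 0) in 5 endothelial classes, aKO in red left of aWT in blue, with exact 95% Poisson intervals for counting error. F8 peaks in lymphatic, Plat in arterial, Thbd in aerocyte, and Vwf and Procr in venous cells of both libraries, and the aKO and aWT bars differ most for Vwf, Procr and, in aerocytes, F2r.

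Vwf (ENSMUSG00000001930, chr6:125546774-125686679, plus strand) was highest in venous cells, at 2228 CPM in aKO and 3830 CPM in aWT, and next in arterial cells, at 891 and 2337 CPM. General capillary cells held 102 CPM in aKO and 332 CPM in aWT. The level was lower in aKO in each of these 3 classes, with folds of 0.582 (0.571 to 0.593) in venous, 0.381 (0.371 to 0.392) in arterial and 0.308 (0.295 to 0.322) in general capillary cells, and log2 ratios of -0.78, -1.39 and -1.65. Over all endothelial cells the ratio was nearer to 1, at 557 CPM in aKO and 884 CPM in aWT (log2 ratio -0.66), and with the 5 classes weighted equally it was -1.01.

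The difference also lay in how many UMIs single cells held. After each cell was thinned to 2000 UMIs, leaving out 1355 aKO and 2126 aWT endothelial cells that were shallower, 61.0% of aKO and 93.8% of aWT arterial cells held a Vwf UMI. At least 5 Vwf UMIs were held by 11.6% of aKO and 46.6% of aWT arterial cells. In venous cells nearly all cells of both libraries held a UMI, 90.6% in aKO and 99.0% in aWT, while 45.0% and 79.4% held at least 5. Without thinning the arterial shares were 78.7% and 95.8%. AT2 cells, which should lack Vwf, gave 9.09% of 110 cells in aWT at the same depth; in aKO 0 of 16 AT2 cells held a UMI, which allows a share of up to 18.8%.

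Aerocytes and lymphatic cells held little Vwf, 48.6 and 25.1 CPM in aKO and 62.6 and 87.8 CPM in aWT. The aWT values lie below the 137 CPM of aWT AT2 cells, where 3.64% of thinned cells held at least 5 UMIs. In aKO the AT2 level was 12.9 CPM (2.66 to 37.7), from 3 UMIs in 17 cells. The aKO aerocyte level (43.3 to 54.4) lay above that interval and the aKO lymphatic level within it. With references that differ this much, the lymphatic log2 ratio of -1.62 and the aerocyte ratio of -0.34 are not read as expression or as a difference. The lymphatic ratio was -0.79 when doublet calls were kept. In general capillary cells Vwf followed the venous markers that a cell also held. Cells with no venous marker stood at 57.8 CPM in aKO and 212 CPM in aWT, and cells with at least 2 at 489 and 1342 CPM. The aKO level was thus lower at each number of venous markers held. The arterial difference was likewise present in cells with no venous marker, at 693 CPM in aKO and 2430 CPM in aWT.

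The markers that define the classes also differed between the libraries. Summed over its 6 genes, the venous list reached 2556 CPM in aKO and 5357 CPM in aWT venous cells, the arterial list 2563 and 3720 CPM in arterial cells, and the general capillary list 3014 and 5773 CPM in general capillary cells. The members of a class may therefore differ between the libraries, and the part of this in the ratios was not tested beyond the following values. With Sema3c, Kit, Glp1r and Slc6a2 taken out of the class lists, the Vwf log2 ratio was -1.34 in general capillary, -1.10 in arterial and -0.81 in venous cells. In general capillary cells holding no marker of another class, 406 in aKO and 979 in aWT, it was -1.0.

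**Figure D2:**
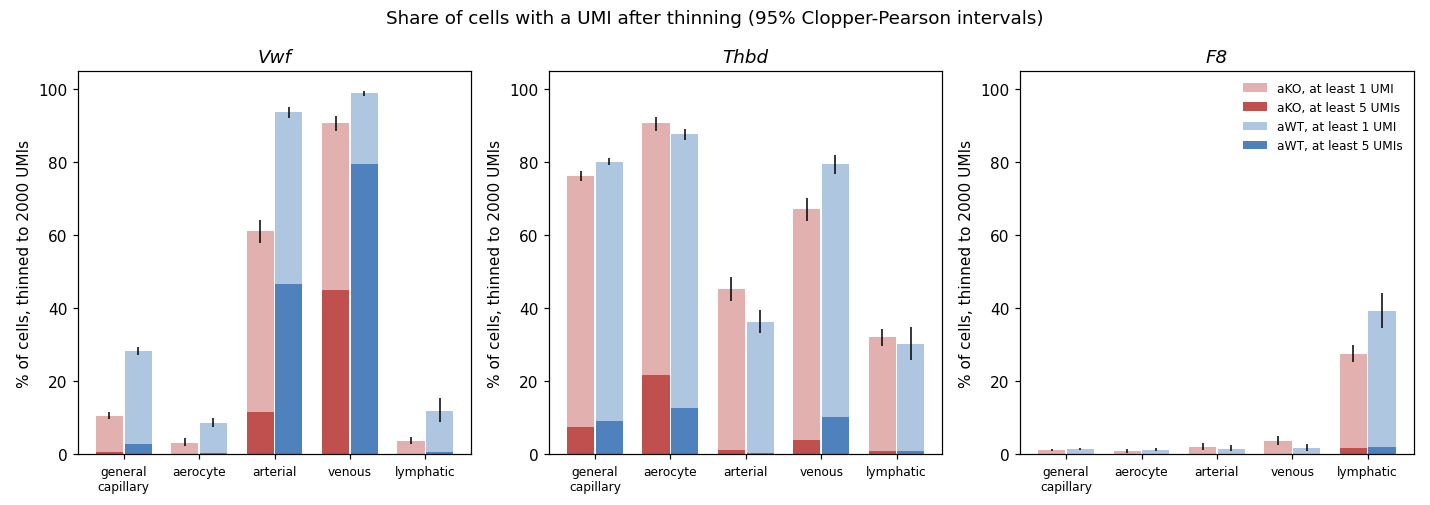
Share of cells, in percent, with at least 1 UMI (pale) and at least 5 UMIs (dark) of Vwf, Thbd and F8 after thinning to 2000 UMIs, aKO in red left of aWT in blue, with exact 95% Clopper-Pearson intervals on the share with at least 1. For Vwf, 45.0% of aKO and 79.4% of aWT venous cells hold at least 5 UMIs, and F8 is held mainly by lymphatic cells.

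F8 (ENSMUSG00000031196, chrX:75172715-75382615, minus strand) was a lymphatic gene in both libraries. It stood at 238 CPM in aKO and 360 CPM in aWT lymphatic cells, a fold of 0.661 (0.615 to 0.712) and a log2 ratio of -0.59, just past the size rule. The sign held under 10 other settings, but the ratio stayed past 1.5-fold under 3 of them. A UMI was held by 27.5% (25.3 to 29.8) of aKO and 39.3% (34.5 to 44.2) of aWT lymphatic cells after thinning. The highest class exceeded the lowest 57.7-fold in aKO and 71.2-fold in aWT, and lymphatic cells gave 86.1% of the F8 UMIs of the 5 classes in aKO and 68.4% in aWT.

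Over all endothelial cells the F8 ratio ran the other way, with 53.7 CPM in aKO and 22.7 CPM in aWT (log2 ratio 1.08), while lymphatic cells made up 16.8% and 3.44% of those cells. With the classes weighted equally it was -0.44. Outside lymphatic cells the level was low. Venous cells held 21.8 CPM in aKO and 10.2 CPM in aWT (log2 ratio 0.82), or 3.54% and 1.62% of thinned cells. Of 110 aWT AT2 cells 1 held a UMI, 0.909% (0.023 to 4.96), an interval that holds both venous shares. In venous cells with no lymphatic marker F8 stood at 21.4 CPM (17.8 to 25.5) in aKO and 9.21 CPM (6.72 to 12.3) in aWT. General capillary, aerocyte and arterial cells held 4.13 to 10.9 CPM in aKO and 5.06 to 9.56 CPM in aWT, near the 4.96 CPM of aWT AT2 cells. F8 is X-linked, so its ratios and the Xist difference cannot be told apart. It shares its span with Gm8522 on the same strand and with Gm6039 and Fundc2 on the other strand. Fundc2 stood at 121 CPM in aKO and 118 CPM in aWT lymphatic cells. Use of strand in the counting is not given in the sources used here.

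Thbd (ENSMUSG00000074743, chr2:148404466-148408188, minus strand), the thrombin receptor that starts protein C activation, was expressed in all 5 classes. Its highest level was in aerocytes, at 1465 CPM in aKO and 1220 CPM in aWT (log2 ratio 0.26). General capillary cells held 915 and 1007 CPM (-0.14), and arterial and lymphatic cells were lowest, at 350 and 273 CPM in aKO and 266 and 243 CPM in aWT. Only in venous cells did the ratio pass 1.5-fold, at 627 CPM in aKO and 1035 CPM in aWT, a fold of 0.606 (0.585 to 0.628) and a log2 ratio of -0.72. Venous cells accordingly lay below general capillary cells in aKO, while in aWT their counting interval overlapped that of general capillary cells.

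The aKO venous cells also held more RNA of the proliferation markers Mki67, Top2a, Birc5 and Cdk1, which summed to 302 CPM against 24.5 CPM in aWT. Without cells holding any of these markers the venous Thbd log2 ratio was -0.60. By the mean over cells it was -0.58, within 1.5-fold. A Thbd UMI was held by 67.1% of aKO and 79.5% of aWT venous cells after thinning, and by 18.2% of aWT AT2 cells. The arterial ratio of 0.39 turned to -0.31 when the 4 differing markers were left out of the class lists.

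Procr (ENSMUSG00000027611, chr2:155751117-155755471, plus strand), which presents protein C to thrombomodulin, had the highest ratio of the 8 genes over all endothelial cells. It stood at 47.3 CPM in aKO and 11 CPM in aWT, a fold of 4.32 (3.98 to 4.69). The log2 ratio was 1.71, above that of every class, and 1.21 with the classes weighted equally. Both libraries had Procr highest in venous cells, at 127 CPM in aKO and 37.6 CPM in aWT (fold 3.38, 2.93 to 3.91, and log2 ratio 1.63). Arterial cells held 89.3 CPM in aKO and 36.5 CPM in aWT (log2 ratio 1.18), and lymphatic cells 41.5 and 24.4 CPM (0.66). In aWT the venous and arterial intervals overlapped; in aKO they lay apart.

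More cells held Procr in aKO: after thinning, 18.5% of aKO and 6.14% of aWT venous cells, and 12.5% and 4.85% of arterial cells. Of 110 aWT AT2 cells 1 held a UMI, 0.909% (0.023 to 4.96). The lymphatic shares, 6.67% (5.49 to 8.01) in aKO and 5.12% (3.20 to 7.72) in aWT, had overlapping intervals, and the thinned lymphatic log2 ratio was 0.31. General capillary cells stood at 7.09 CPM in aKO and 2.49 CPM in aWT (log2 ratio 0.69). Their thinned share in aWT, 0.371%, lay within the interval of that of AT2 cells. Their aWT level was near the 1.86 CPM (0.384 to 5.44) of aWT AT2 cells. The general capillary ratio is therefore not read as a difference in expression. Without proliferating cells the venous ratio was 1.64.

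Tfpi (ENSMUSG00000027082, chr2:84432855-84476775, minus strand) differed least. It stood at 56.6 CPM in aKO and 53.7 CPM in aWT endothelial cells, a fold of 1.05 (1.00 to 1.10) and a log2 ratio of 0.07. Its level ran from 28.6 CPM in arterial to 77.1 CPM in lymphatic cells of aKO, and from 32.1 CPM in arterial to 73.6 CPM in aerocyte cells of aWT. The class ratios lay between -0.14 in arterial and 0.33 in lymphatic cells, and 13.8% of aKO and 13.9% of aWT aerocytes held a UMI after thinning. In aKO the aerocyte interval overlapped both the lymphatic and the venous one, which lay apart from each other. In aWT the lymphatic interval overlapped both the aerocyte and the venous one, which lay apart.

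**Figure D3:**
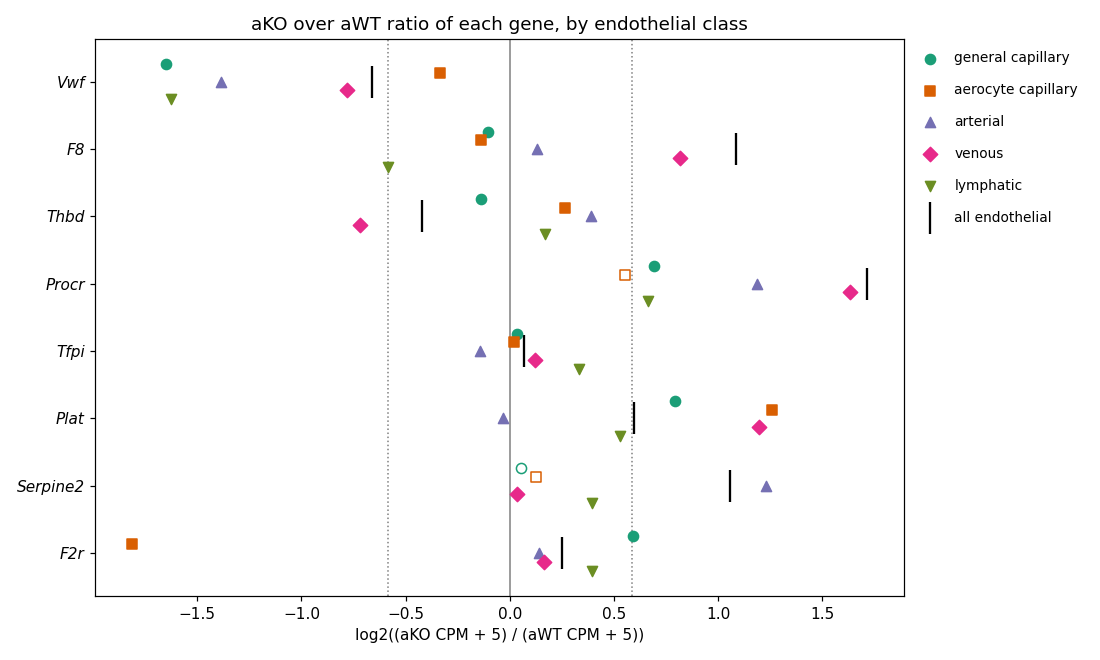
Log2 ratio of aKO over aWT (x axis, after adding 5 CPM) for each gene, with a symbol per class and a black bar for all endothelial cells; dotted lines mark 1.5-fold and open symbols lie under 5 CPM in both libraries. Vwf lies left of 0 in every class and Procr right of 0. The F8 bar at 1.08 and the Procr bar at 1.71 lie outside the ranges of their 5 classes.

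Plat (ENSMUSG00000031538, chr8:22757727-22782844, plus strand), the activator of plasminogen, was an arterial gene. Arterial cells held 647 CPM in aKO and 663 CPM in aWT, a fold of 0.976 (0.937 to 1.02), and 57.1% and 56.1% of them held a UMI after thinning. The capillary levels were higher in aKO, and so were the low venous levels. General capillary cells stood at 140 CPM in aKO and 79.0 CPM in aWT (log2 ratio 0.79), aerocytes at 62.1 and 23.0 CPM (1.26) and venous cells at 36.9 and 13.3 CPM (1.20). Arterial cells exceeded the lowest class, venous cells, 17.6-fold in aKO and 50.0-fold in aWT.

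Among cells with no arterial marker, aerocytes held 57.1 CPM in aKO and 20.2 CPM in aWT. General capillary cells with none held 95.8 CPM (88.8 to 103) in aKO and 62.8 CPM (56.9 to 69.1) in aWT, a smaller difference that lies within 1.5-fold after 5 CPM are added. Thinned shares were 17.1% of aKO and 11.2% of aWT general capillary cells, 9.46% and 4.39% of aerocytes and 4.39% and 1.94% of venous cells. Of aWT AT2 cells 1.82% (0.221 to 6.41) held a UMI, an interval that holds both venous shares and the aWT aerocyte share. The aWT AT2 level was 10.5 CPM (6.14 to 16.9), an interval that holds the aWT venous level but not the aWT aerocyte level. Over all endothelial cells Plat stood at 188 CPM in aKO and 123 CPM in aWT (log2 ratio 0.59), and at 0.20 with equal class weights. Within arterial cells Plat and Vwf were found together: 65.1% of aKO arterial cells with a Vwf UMI held Plat and 44.6% of those without, and in aWT 57.5% and 33.9%.

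Serpine2 (ENSMUSG00000026249, chr1:79794197-79861180, minus strand), the inhibitor of thrombin and plasminogen activators, was held by venous and lymphatic cells. Venous cells stood at 73.2 CPM in aKO and 71.4 CPM in aWT (fold 1.03, 0.908 to 1.16), and lymphatic cells at 76.4 and 56.9 CPM (1.34, 1.13 to 1.61). The class that differed was arterial, with 27.1 CPM in aKO and 8.68 CPM in aWT, a fold of 3.12 (2.29 to 4.33) and a log2 ratio of 1.23. In arterial cells with no venous marker the levels were 18.2 CPM (12.8 to 25.1) and 5.32 CPM (2.84 to 9.11). The arterial ratio rested on 255 UMIs in aKO and 49 in aWT. Of thinned cells 3.26% (2.21 to 4.62) in aKO and 2.00% (1.21 to 3.11) in aWT held one, with overlapping intervals. The log2 ratio fell to 0.74 with a marker lead of at least 2, and stayed past 1.5-fold under all 10 other settings.

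Over all endothelial cells Serpine2 stood at 32.8 CPM in aKO and 13.2 CPM in aWT (log2 ratio 1.06), and at 0.31 with equal class weights. General capillary cells and aerocytes stood at or under 4.07 CPM in aKO and 3.75 CPM in aWT. AT2 cells held Serpine2 themselves, at 60.1 CPM in aKO and 49.0 CPM in aWT, and give no background for it. Among lymphatic cells F8 and Serpine2 marked largely separate cells. In aKO 3.43% of the cells with an F8 UMI held Serpine2 and 15% of those without, and in aWT 2.48% and 11.6%.

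F2r (ENSMUSG00000048376, chr13:95601803-95618487, minus strand), the thrombin receptor PAR1, had the lowest ratio of any gene and class. Aerocytes stood at 11.9 CPM in aKO and 54.4 CPM in aWT, a fold of 0.219 (0.170 to 0.279) and a log2 ratio of -1.81, from 75 and 602 UMIs. A UMI was held by 2.44% (1.57 to 3.61) of aKO and 8.50% (7.34 to 9.77) of aWT aerocytes after thinning. Of 110 aWT AT2 cells 3 held one, 2.73% (0.566 to 7.76). The aKO share is near this background, which itself rests on few cells. In aerocytes holding no general capillary marker the levels were 7.15 CPM (3.09 to 14.1) and 48.2 CPM (39.7 to 58.1).

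The aerocyte difference set aKO apart from aWT in the order of the classes. In aWT the arterial, aerocyte and lymphatic levels, 54.7, 54.4 and 42.6 CPM, were neighbours with overlapping intervals. In aKO the arterial and lymphatic levels, 60.7 and 57.5 CPM, overlapped each other, and aerocytes lay below general capillary cells. General capillary cells held 21.4 CPM in aKO and 12.6 CPM in aWT (log2 ratio 0.59), with thinned shares of 3.86% and 2.38%; the aWT share is below that of AT2 cells and the ratio is not read as a difference in expression. The aerocyte markers themselves summed to 6939 CPM in aKO and 6568 CPM in aWT aerocytes, but single markers differed in both directions. Tbx2 stood at 381 CPM in aKO and 633 CPM in aWT aerocytes, and Rprml at 274 and 141 CPM. In general capillary cells the aerocyte list summed to 618 CPM in aKO and 162 CPM in aWT. The members of the aerocyte class may therefore differ between the libraries. The part of this in the F2r ratio was not tested beyond the values given here. The aerocyte F2r ratio lay between -2.10 and -1.62 under 11 other settings.

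Other genes of the system were taken from 5 lists holding 53 genes, of which 28 were measured in all endothelial cells. In aKO 11 of them were higher by 1.5-fold or more and 1 was lower, beside 11.9% and 6.18% of all measured genes. With equal class weights 6 were higher. Their median log2 ratio was 0.45, against 0.09 over all measured genes. None of 13 other coagulation factors, F2 to F13b and the fibrinogen chains among them, reached 5 CPM over all endothelial cells. In arterial cells F5, which encodes factor V, did so, at 4.56 CPM in aKO and 7.62 CPM in aWT (log2 ratio -0.40). Of 6 measured anticoagulants of 9, 2 were higher: Anxa5, which shields membrane phospholipids, at 320 CPM in aKO and 180 CPM in aWT, and Tfpi2, a protease inhibitor, at 6.01 and 1.95 CPM. Serpinc1, which encodes antithrombin, stood at 4.57 CPM in aKO and 9.31 CPM in aWT (log2 ratio -0.58), and Gas6, a vitamin K-dependent ligand, at 87.8 and 68.2 CPM (0.34).

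Of 7 measured fibrinolysis genes of 11, 5 were higher in aKO and none was lower, beside 11.9% and 6.18% of all measured genes. The median log2 ratio was 0.73, against 0.09 over all measured genes. S100a10 and Anxa2, which together form a surface receptor for plasminogen and its activator, stood at 871 and 690 CPM in aKO and at 259 and 253 CPM in aWT (log2 ratios 1.73 and 1.43). Plaur, the urokinase receptor, stood at 307 CPM in aKO and 130 CPM in aWT (1.21), and Thbs1, thrombospondin-1, at 35.2 and 19.2 CPM (0.73). In general capillary cells Thbs1 had the other sign, at 8.95 CPM in aKO and 14.2 CPM in aWT (-0.46, within 1.5-fold). Of the 6 list genes measured in that class, 3 were higher and none was lower. The list's median was 1.43 in arterial, 1.39 in venous, 0.62 in general capillary, 0.38 in aerocyte and 0.03 in lymphatic cells, where the medians over all measured genes were 0.03, 0.06, 0.09, 0.06 and 0.03 in the same order. S100a10 passed 1.5-fold in the 4 blood classes, from 1.14 in aerocytes to 2.00 in arterial cells, and stood at 0.34 in lymphatic cells.

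Of 5 measured thrombin receptors and platelet inhibitors of 8, 3 were higher: Nos3, endothelial nitric oxide synthase, at 180 CPM in aKO and 54.6 CPM in aWT (log2 ratio 1.63), F2rl1, the receptor PAR2, at 13.6 and 2.96 CPM (1.23), and Ptgis, prostacyclin synthase, at 84.0 and 36.0 CPM (1.12). Ptgs1, cyclooxygenase-1, stood at 121 CPM in aKO and 85.3 CPM in aWT (0.48). In general capillary cells Nos3 stood at 120 CPM in aKO and 35.5 CPM in aWT (1.63), and Ptgs1 at 171 and 83.0 CPM (1.00). Ptgis there stood at 16.5 and 11.4 CPM (0.39), and F2rl1 at 0.637 and 0.330 CPM. Of 10 measured genes of 12 for the storage, release and clearance of von Willebrand factor and factor VIII, 1 was higher and 1 lower. This is near the 11.9% and 6.18% of all measured genes. Cd63, a membrane protein of the storage granules, was higher, at 179 CPM in aKO and 59.2 CPM in aWT (1.52). Stab2, a scavenger receptor that clears both proteins, was lower, at 14.0 CPM in aKO and 34.5 CPM in aWT (-1.06), and in lymphatic cells it stood at 72.3 and 762 CPM (-3.31). Mcfd2, which helps factor VIII leave the endoplasmic reticulum, stood at 75.0 CPM in aKO and 51.7 CPM in aWT (0.50).

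**Figure D4:**
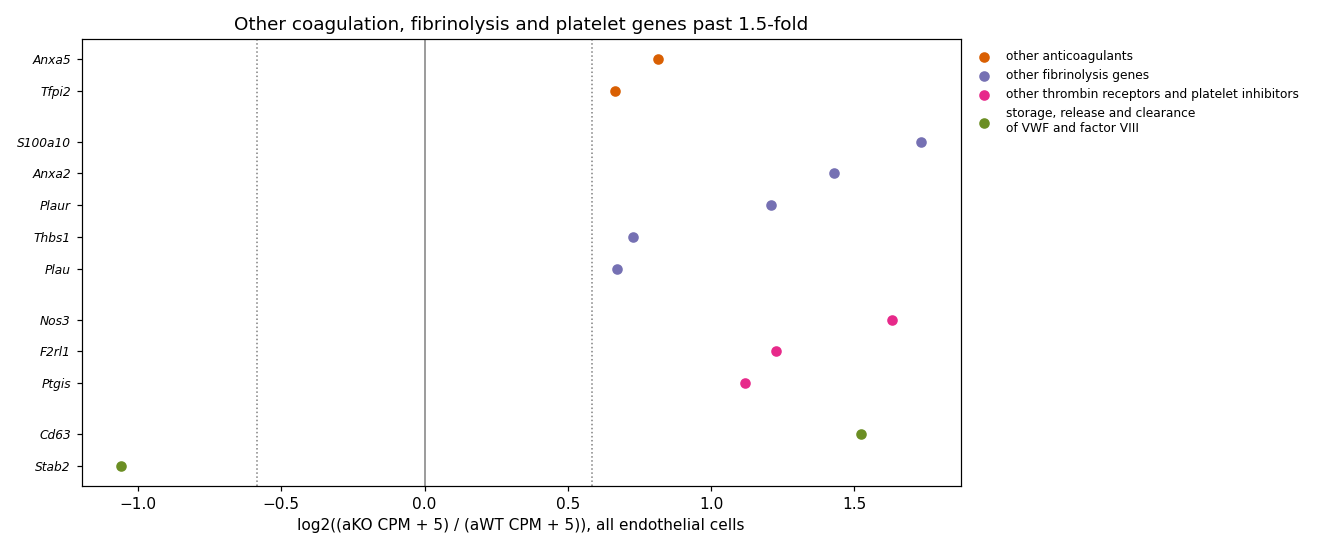
Log2 ratio of aKO over aWT in all endothelial cells (x axis, after adding 5 CPM) for the 12 list genes, of 28 measured, that passed 1.5-fold in either direction, coloured and grouped by list, with dotted lines at 1.5-fold. The 11 genes right of the upper line include S100a10, Nos3 and Cd63, and Stab2 is the gene left of the lower line.

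Genes with the most similar class pattern were ranked by Pearson's r of log levels over 10 points, the 5 classes in each library, among 5602 genes. The points share 2 libraries and their cells, so r is a description. F8 was followed most closely by Dennd2a and Wdr17 (both r = 0.993), Procr by Gpx1 (0.987) and Eef1b2 (0.981), Serpine2 by Mgat4a (0.983) and Itgb3 (0.981), and Thbd by Pitpnm2 (0.980) and Lrrc8b (0.965). Plat was followed by Stk32a (0.978) and Ikbkb (0.940), Vwf by Spag9 (0.976) and Ptk2b (0.970), Tfpi by Hspa12a (0.955) and Mdfic (0.945), and F2r least closely, by Abi3bp (0.933) and Gucy1b1 (0.853). Among the 8 genes themselves Procr and Serpine2 were the most alike (0.81) and Tfpi and Plat the most opposed (-0.87).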

How the data were processed

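Single-cell libraries of sorted tdTomato-positive lung cells, 1 labelled aKO and 1 labelled aWT in their titles, were analysed. The deposited matrices hold raw UMI counts. Cell Ranger 7.2.0 and mm10 are named in the submitters' processing notes, and single-cell 3' v3 chemistry is named per the labels' protocols. Which annotation release was used, and whether intronic reads counted, is not given in the sources used here.

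Cells needed 500 or more detected genes and a mitochondrial share of 15% or less. Doublets were scored in each library with Scrublet in scanpy 1.11.5. Its automatic threshold called 388 aKO barcodes but 1 aWT barcode, so a score of 0.2 was used in both, which removed 406 aKO (3.68%) and 700 aWT barcodes (4.38%). A cell was endothelial with at least 2 of 6 endothelial markers and more UMIs of these than of any other cell type list. It went to the class with the most of 6 markers, at least 2, and a lead of at least 1, and 1366 aKO and 1312 aWT endothelial cells had no class. The scoring rule was set after the data had been seen.

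Counts were summed per class and library, scaled to CPM, and compared as log2 ratios after adding 5 CPM, which understates low genes. With 1 library per group no test was possible. Level intervals are exact Poisson, fold intervals exact binomial and share intervals exact Clopper-Pearson, all at 95% and for counting error only. A share of 0 was given the limit that 3 cells of the total allow. The size rules were 1.5-fold with 5 CPM for members and lists and 2-fold with 50 CPM for counts over all genes. The 2-fold rule was tested on simulated data, and the 1.5-fold rule was not. Named were the 8 genes, up to 4 measured genes per list with the largest absolute log2 ratio, and the 2 genes most like each member. A gene that the rule for lists names is not reported here. Likeness was Pearson's r over the 10 class and library levels. The members and lists were chosen with earlier results of these data known. Gene models came from GENCODE M21 (mm10), and GRCm38.p6 promoter windows from RefSeq.

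Alternatives were TMM factors (edgeR 4.0.16, R 4.3.3), the mean over cells, a pseudocount of 1 CPM, stricter (1000 genes, 10%) and looser (200 genes, 20%) cell filters, doublet calls kept, a marker lead of 2, thinning to 2000 UMIs, equal class weights and a minimum of 20 CPM. Other tools were Python 3.11.15, numpy 2.4.6, scipy 1.17.1 and pandas 2.3.3.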

Additional observations from a re-analysis of the deposited data

Results flagged for a closer look

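The F8 log2 ratio of aKO over aWT had opposite signs in 2 classes, both past 1.5-fold: 0.82 in venous cells and -0.59 in lymphatic cells, although the lymphatic ratio stayed past 1.5-fold under 3 of 10 other settings. The F2r log2 ratio was 0.59 in general capillary cells and -1.81 in aerocytes. Both pairs were flagged because the ratios had opposite signs past 1.5-fold in 2 classes. The general capillary F2r ratio is not read as a difference in expression. The difference between the classes was not tested in either case, since each group was a single library. The venous F8 level was low in both libraries, and both thinned venous shares lay within the interval of that of aWT AT2 cells. The aWT share of general capillary cells with an F2r UMI lay within the interval of that of aWT AT2 cells, which rested on 3 of 110 cells.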

How the results depend on the processing

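Of 48 gene by population ratios, 22 passed 1.5-fold, 21 of these kept their sign under every setting run and 14 also stayed past 1.5-fold. There were 10 settings for arterial, venous and lymphatic cells and 11 for the other populations. The exception in sign was F8 over all endothelial cells, at -0.44 with equal class weights, where the larger lymphatic share of aKO has no weight. The ratios that came within 1.5-fold under some setting were Plat (0.20) and Serpine2 (0.31) over all endothelial cells with equal class weights, Procr (0.53) by the mean over cells and F2r (0.44) in general capillary cells without a marker of another class, Thbd in venous cells (-0.58) and F8 in lymphatic cells (-0.47, and within 1.5-fold under 7 of 10 settings) by the mean over cells, and Procr in thinned lymphatic cells (0.31).

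Of the 53 list genes, 2 and not 1 were lower in aKO with TMM factors and also 2 with a pseudocount of 1 CPM, and 6 and not 11 were higher with equal class weights. Over all genes, 212 were at least 2-fold higher in aKO in all endothelial cells, 85 with equal class weights and 362 from a minimum of 20 CPM. That lower minimum also gave 120 genes higher in aerocytes (72 from 50 CPM), 380 higher in venous (220), and 96 higher and 114 lower in lymphatic cells (61 and 74). Without the 4 class markers that differed, 111 were higher in aerocytes. Of 162 such counts, 152 were within 1.5 times their first value. The settings without those 4 markers, without proliferating cells and without cells holding a marker of another class were chosen after seeing the data; the last left over 100 cells per library in general capillary cells and aerocytes alone. No paired analysis was possible because each group was a single library with no replicate numbers, and for the same reason no library could be left out. The cause of the other shifts was not tested. Depth limits F8, Procr and Serpine2 in general capillary cells and aerocytes, where a level rests on 14 to 260 UMIs.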
